A study of Mus musculus with 16 samples.

Results

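The Arl4 and Rnd genes encode 6 small GTPases, and all 6 (Arl4a, Arl4c, Arl4d, Rnd1, Rnd2 and Rnd3) were found by symbol among the 24060 genes listed for every library. They were picked because Arl4d was higher and Arl4c and Rnd3 were lower in astrocyte RNA after stress. The stress comparison in that RNA is therefore described for these genes with no test, and only the other comparisons are tested.

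The mice were Aldh1l1-cre/ERT2 x RiboTag animals of 3 months on a C57BL/6J background, and the tissue was somatosensory cortex. In these mice tamoxifen, given at 2 months of age, lets Cre driven by the astrocyte gene Aldh1l1 switch on HA-tagged Rpl22, a ribosomal protein, and all 4 groups carried both alleles and received tamoxifen. Naïve mice came from the home cage, and stressed mice swam for 20 min and rested for 90 min. From each condition there were 4 libraries of RNA bound to tagged ribosomes (IP) and 4 of the lysate before the pull-down (INPUT, all cell types). A library is named here by its number, and which IP and INPUT libraries came from the same mouse, or the sex of each mouse, is not given with the samples. Per the methods, 4 males and 4 females were used. Every group held libraries with high and with low Xist, the gene used here to mark sex. The methods place the experiments at a shorter interval after tamoxifen than the labels, which give 4 weeks.

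Small GTPases are switches that act on their partners when bound to GTP. The Arl4 proteins belong to the Arf family, sit at the plasma membrane when active and recruit cytohesins, exchange factors that in turn activate Arf6, a GTPase of membrane traffic and cortical actin. The Rnd proteins are unusual small GTPases that do not hydrolyse GTP and so stay active. Rnd3, also called RhoE, binds the kinase Rock1 and p190 RhoGAP (Arhgap35, Arhgap5) and so opposes RhoA, the GTPase that drives actomyosin contraction. Rnd1 binds plexin receptors, and Rnd2 is best known from migrating neurons.

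Arl4d lies on chromosome 11 of GRCm38 (mm10) at 101665541 to 101667832 on the plus strand, and Rnd2 lies on the same chromosome and strand at 101464999 to 101471853. The other 4 lie on the minus strand. Arl4a is at 40005447 to 40038025 of chromosome 12, Arl4c at 88673125 to 88702221 of chromosome 1, Rnd1 at 98663421 to 98677461 of chromosome 15 and Rnd3 at 51130438 to 51149111 of chromosome 2. All are annotated as protein coding. The longest stretch that any pair of them had in common was 23 bases, between Rnd1 and Rnd3. Rnd2 overlaps Vat1, a gene on the opposite strand, over 1232 bases, and whether the counting used strand is not given in the sources used here.

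RefSeq promoter windows (GRCm38.p6) matched for Arl4a, Arl4c, Arl4d and Rnd3, that is, for 4 of the 6 genes, and Rnd1 and Rnd2 did not match. For the 3 genes on which the choice rests, the 120 bases directly before the RefSeq start are shown, each 5′ to 3′ on the strand of its gene: Arl4d at chr11:101665421-101665540 (plus strand), Arl4c at chr1:88702192-88702311 (minus strand) and Rnd3 at chr2:51149112-51149231 (minus strand). Capitals mark a cyclic AMP response element (CRE) in Arl4d and a TATA box in Rnd3, and Arl4c has no capitals because none of the searched letters occurred in this stretch.
Arl4d: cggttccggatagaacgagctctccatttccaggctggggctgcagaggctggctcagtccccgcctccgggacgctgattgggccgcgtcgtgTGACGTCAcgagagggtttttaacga
Arl4c: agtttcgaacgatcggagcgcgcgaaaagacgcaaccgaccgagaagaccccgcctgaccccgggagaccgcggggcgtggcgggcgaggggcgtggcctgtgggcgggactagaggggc
Rnd3: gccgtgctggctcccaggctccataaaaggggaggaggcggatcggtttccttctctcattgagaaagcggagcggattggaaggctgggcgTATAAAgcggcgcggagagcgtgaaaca

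The searched windows held the 250 bases before each start and were read on both strands. The full CRE, TGACGTCA, the letters bound by CREB, lay 26 to 19 bases before the start of Arl4d, and 1.55% of all 32817 windows in the table held these letters. The shorter core TGACG, which the full CRE contains, is common, at 17.7% of windows. It also lay 228 to 224 bases before the start of Arl4d, 198 to 194 bases before that of Arl4c and 95 to 91 bases before 1 of the RefSeq starts of Arl4a. TATAAA, held by 12.4% of windows, lay 28 to 23 bases before the start of Rnd3. The letters AGAACA, from the glucocorticoid receptor element, are held by 16.1% of windows and were not in these windows. The E-box CANNTG (66.2% of windows) was found in Rnd3 and Arl4a, and the AP-1 site TGANTCA (6.75%) in Arl4a. The GC content of the window was 54.4% in Arl4d, 60% in Rnd3 and 71.6% in Arl4c, against a median of 52.4% over all windows. These are matches of letters, and no binding was measured.

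The libraries held 16392876 to 25814364 reads on genes. Values are CPM, the reads of a gene per 1000000 reads on all genes of its library, so that 3 reads are at most 0.183 CPM, and the 6 genes had between 42 and 1610 reads in every library. All 8 astrocyte markers were higher in naïve IP than in naïve INPUT (median log2 ratio 3.61), and all 7 neuron markers (median −4.06), 6 microglia markers and 5 endothelial markers were lower, with no marker at 0 in any library. Of the 6 oligodendrocyte markers 5 were lower and 1 was higher, all 3 precursor markers were lower, and of the 3 mural markers tested 2 were lower and Pdgfrb was higher. Rpl22 itself, counted with and without its tag, had 26.4 ± 1.18 CPM in naïve IP and 48.0 ± 3.27 CPM in naïve INPUT (SD, n = 4 each).

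In naïve IP, Arl4d had 2.06, 2.33, 8.50 and 1.94 CPM in replicates 2, 8, 11 and 13. In stress IP it had 30.0, 27.8, 26.7 and 16.2 CPM in replicates 4, 5, 6 and 15. In naïve INPUT (replicates 3, 7, 14 and 16) it had 8.47, 12.5, 12.6 and 14.4 CPM, and in stress INPUT (replicates 1, 9, 10 and 12) 19.8, 17.0, 17.9 and 22.6 CPM. Stress values thus lay above naïve values in both kinds of RNA, and naïve IP replicate 11 stood apart from the other 3 naïve IP libraries.

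Arl4c, which binds the actin crosslinker filamin A, had 19.1, 18.2, 14.5 and 18.6 CPM in naïve IP, in the same order of replicates, and 9.01, 12.1, 11.2 and 11.9 CPM in stress IP. In INPUT it had 73.0, 71.9, 69.3 and 70.5 CPM in naïve mice and 75.6, 68.8, 64.4 and 68.5 CPM in stressed mice. All stress IP values lay below all naïve IP values, whereas the INPUT values overlapped. Arl4a, which binds the Elmo scaffold of the Rac activator Dock1, did not separate by stress in either RNA, with naïve IP values of 7.48 to 9.27 CPM and stress IP values of 6.90 to 10.3 CPM, and with 39.5 to 57.8 CPM in naïve INPUT and 44.6 to 50.9 CPM in stress INPUT.

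Rnd3 had 25.2, 26.1, 20.3 and 29.2 CPM in naïve IP and 12.3, 16.9, 17.0 and 16.1 CPM in stress IP. In INPUT it had 18.1, 20.6, 17.1 and 21.9 CPM in naïve mice and 18.5, 18.8, 20.0 and 21.2 CPM in stressed mice. As with Arl4c, the IP groups did not overlap and the INPUT groups did, and naïve IP replicate 11 was the naïve library nearest to the stress values. Rnd1 ranged from 2.96 to 4.60 CPM in naïve IP, from 2.24 to 3.94 CPM in stress IP, from 31.9 to 34.7 CPM in naïve INPUT and from 29.0 to 35.8 CPM in stress INPUT. Rnd2 ranged from 20.2 to 27.3 CPM in naïve IP, from 18.7 to 22.5 CPM in stress IP, from 26.8 to 29.2 CPM in naïve INPUT and from 24.8 to 28.3 CPM in stress INPUT. For Rnd1 and Rnd2 naïve and stress values overlapped in both RNAs.

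**Figure D1:**
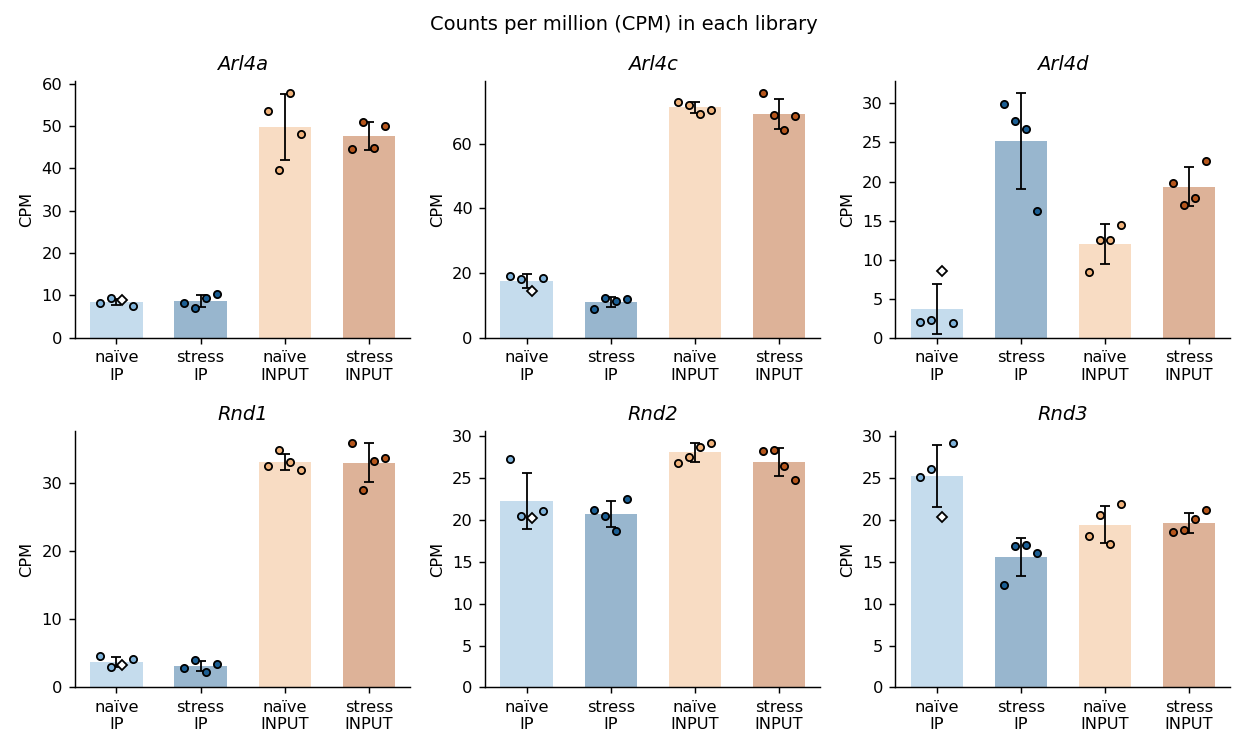
CPM of the 6 genes in each library, with bars for the group mean, lines for the SD (n = 4) and points for single libraries (white diamond, naïve IP replicate 11). Arl4a, Arl4c and Rnd1 were lower in all IP than in all INPUT libraries. Stress IP stood apart from naïve IP in Arl4d, Arl4c and Rnd3, which were picked by that difference.

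To compare levels between genes, CPM was divided by the kilobases of exon (the union over transcripts). In naïve IP the mean level was highest for Rnd2, at 11.2 ± 1.70 CPM per kb, followed by Rnd3 at 5.68 ± 0.83 and Arl4c at 3.21 ± 0.38 CPM per kb (SD, n = 4). Below them Arl4d at 2.68 ± 2.32, Rnd1 at 1.26 ± 0.26 and Arl4a at 1.10 ± 0.10 CPM per kb could not be ordered, since the ranges of neighbours overlapped, as did those of Arl4c and Arl4d. The last overlap rests on replicate 11, without which Arl4d had 1.52 ± 0.145 CPM per kb (1.40 to 1.69, n = 3), below the 2.64 to 3.48 CPM per kb of Arl4c. In stress IP the order was led by Arl4d at 18.2 ± 4.44 CPM per kb, above Rnd2 at 10.4 ± 0.81, Rnd3 at 3.51 ± 0.50 and Arl4c at 2.01 ± 0.26, with no overlap between these neighbours. Arl4d, Arl4c and Rnd3 were picked by their stress difference in IP, so their places in either IP order are only a description. Arl4a at 1.13 ± 0.19 and Rnd1 at 1.06 ± 0.25 CPM per kb overlapped.

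In naïve INPUT, which all cell types share, Rnd2 (14.1 ± 0.55 CPM per kb), Arl4c (13.0 ± 0.30) and Rnd1 (11.1 ± 0.42) were the 3 highest. They were followed by Arl4d (8.69 ± 1.82) and Arl4a (6.46 ± 1.02), whose ranges overlapped, and by Rnd3 (4.38 ± 0.50), the lowest of the 6. In stress INPUT the means of Arl4d (14.0 ± 1.79), Rnd2 (13.5 ± 0.84), Arl4c (12.6 ± 0.85) and Rnd1 (11.1 ± 0.96) came first, each overlapping the next. Arl4a (6.18 ± 0.43) and Rnd3 (4.43 ± 0.28) stayed below them without overlap. With the longest transcript as the length, Arl4d still had the highest mean in stress IP but overlapped Rnd2 (from 11.7 and up to 14.3 CPM per kb). Arl4c then ranked first by mean in both INPUT groups but overlapped Rnd2 in each (17.3 against 17.1 CPM per kb in stress INPUT). Arl4d took rank 4 in stress INPUT, and its range overlapped those of its neighbours.

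The balance within a subfamily is described next, and for Arl4 the stress IP values are those by which Arl4d and Arl4c were picked. Of the Arl4 level per kb, Arl4d made up 34.5% ± 18.3 in naïve IP and 84.5% ± 5.22 in stress IP, and Arl4c 49.1% ± 15.2 and 9.88% ± 3.14 (SD, n = 4 each). In INPUT the share of Arl4d was 30.7% ± 5.30 in naïve mice (23.2 to 35.4%) and 42.6% ± 2.94 in stressed mice (39.1 to 46.3%), ranges that did not overlap. In naïve mice the shares of all 3 Arl4 genes overlapped between IP and INPUT. For Arl4c that overlap rests on naïve IP replicate 11, at 26.6%, against 43.2 to 50.4% in naïve INPUT. The same library held the highest Arl4d share of naïve IP, 61.9%, and so raised the mean share given above. Of the Rnd level, Rnd2 held the largest share in every group, from 46.6% ± 2.84 in stress INPUT to 69.5% ± 3.41 in stress IP. Rnd1 held 37.6% ± 1.52 in naïve INPUT and 6.93% ± 0.80 in naïve IP, and Rnd3 held 14.8% ± 1.37 and 31.4% ± 4.08, so that the minor paralog of the tissue was Rnd3 and that of the astrocyte RNA was Rnd1.

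**Figure D2:**
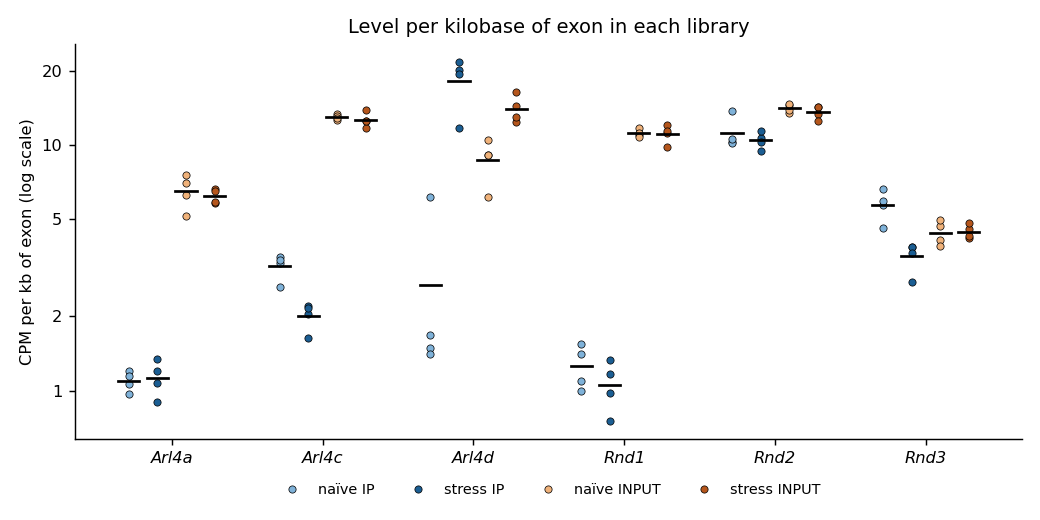
CPM per kilobase of exon (log scale) for each gene in the 16 libraries, with a line at each group mean (n = 4). Rnd2 was highest in naïve IP (mean 11.2), and Arl4d, which was picked for its rise in IP, was highest in stress IP (mean 18.2).

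IP was compared with INPUT to ask which of these transcripts are carried by astrocyte ribosomes more, or less, than in the tissue. By CPM, Arl4a, Arl4c and Rnd1 were clearly lower in IP, and Rnd2 and Rnd3 lay near the tissue level. Against the median ratio of all genes, given below, Rnd2 and Rnd3 lay higher. The comparison used limma on log2(CPM + 0.1) with Benjamini-Hochberg adjustment over all genes above a mean of 1 CPM, and its IP libraries are those by whose stress difference the genes were picked. Of 13339 genes in naïve mice, 23.7% were higher and 64.0% lower in IP, with a median log2 ratio of −0.64. The top 10 genes took 19.1% ± 0.34 of naïve IP reads and 3.78% ± 0.05 of naïve INPUT reads (SD, n = 4 each), whose part in that median was not tested. Ratios are read here against −0.64. When libraries were rescaled by the median ratio, 5599 genes were higher and 5635 lower in place of 3158 and 8540.

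In naïve mice 5 of the 6 genes were called lower in IP and 1 higher, beside 64.0% and 23.7% of all genes. Rnd1 had the lowest log2 ratio, −3.13 (SE 0.13, adjusted p = 3.9e-11, limma), that is, 11.4% of the INPUT level by mean CPM, and 91.7% of all genes had a larger ratio. Arl4a had a log2 ratio of −2.54 (SE 0.12, adjusted p = 8.8e-11, limma) and Arl4c of −2.02 (SE 0.09, adjusted p = 4.2e-11, limma). For these 3 genes no IP value reached an INPUT value (two-sided exact permutation p = 0.0286, the smallest that 70 labelings of 8 libraries allow). How many of all genes separated in this way was not counted. Since 87.7% of all genes were called in this comparison, the separation is not read as setting these 3 apart. All 3 also lay below −0.64 and kept their direction and call under both rescalings.

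Arl4d was lower in naïve IP by a log2 ratio of −1.94 (SE 0.37, adjusted p = 0.00025, limma), with 1 IP value, that of replicate 11, above the lowest INPUT value (exact permutation p = 0.0571). Without that library the log2 ratio was −2.43 and the mean IP level 17.6% of INPUT in place of 30.9%. Rnd2 had a log2 ratio of −0.34 (SE 0.10, adjusted p = 0.0045, limma), above the median of all genes, and it turned to 0.30 with median-ratio scaling and 0.26 with quantile normalization. Rnd3 was the only one of the 6 called higher in naïve IP, with a log2 ratio of 0.37 (SE 0.11, adjusted p = 0.0085, limma), although its groups overlapped (exact permutation p = 0.0857). Its ratio was 1.01 with median-ratio scaling, and its call was lost without the filter on low values. Arl4d, Arl4c and Rnd3 were picked by a stress difference over the naïve and stress IP libraries. Their IP over INPUT p-values in naïve and stressed mice are therefore not free of that choice. In bulk RNA such as INPUT, fewer cells of a type and less RNA per cell cannot be told apart.

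In stressed mice 23.6% of 13333 genes were higher and 62.5% lower in IP (median log2 ratio −0.63), and 5 of the 6 genes were called lower and none higher. The log2 ratio was −3.38 (SE 0.16) for Rnd1, −2.64 (SE 0.10) for Arl4c and −2.45 (SE 0.12) for Arl4a, with adjusted p of 5.1e-10, 6.8e-11 and 6.6e-10 in limma. It was −0.38 (SE 0.09, adjusted p = 0.0012, limma) for Rnd2 and −0.34 (SE 0.11, adjusted p = 0.013, limma) for Rnd3, and both turned positive with median-ratio scaling (0.25 and 0.29) and with quantile normalization (0.24 and 0.29). Arl4d had a log2 ratio of 0.35 (95% interval −0.03 to 0.72, adjusted p = 0.076, limma), and its IP and INPUT ranges overlapped (exact permutation p = 0.171). With median-ratio scaling that ratio was 0.98 and was called.

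**Figure D3:**
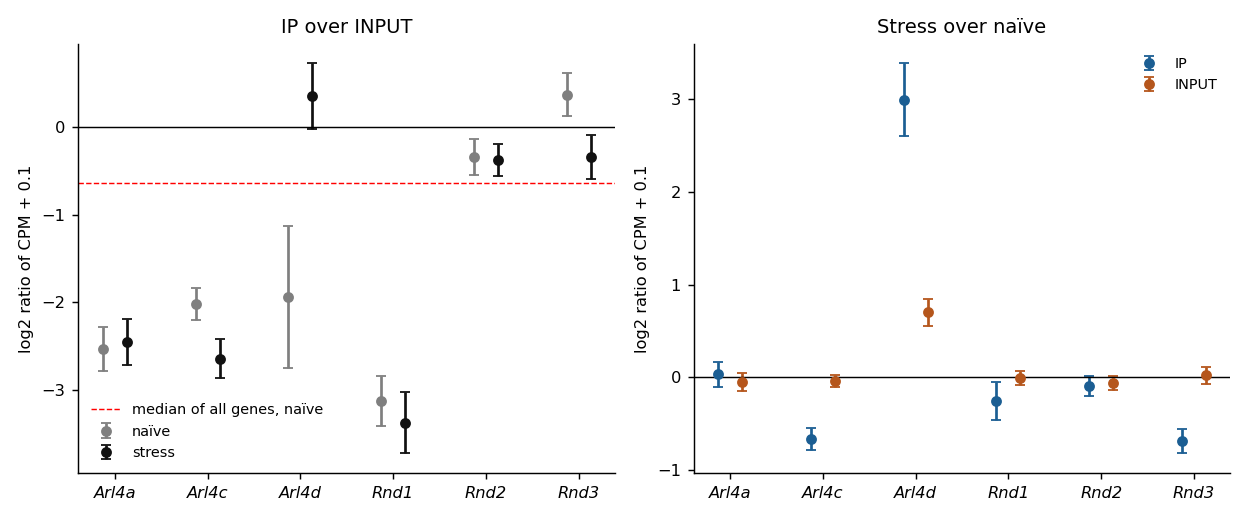
Left, log2 ratio of IP over INPUT for each gene in naïve (grey) and stressed (black) mice with 95% intervals, and the median of all genes in naïve mice (dashed, −0.64). Right, log2 ratio of stress over naïve in IP and in INPUT with the SE as the bar, where in IP the genes were picked by this ratio. Rnd1 had the lowest IP over INPUT ratio (−3.13 in naïve mice), and Arl4d the highest stress ratio in both RNAs (2.99 and 0.70).

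Stress in INPUT was a comparison whose libraries the choice of the genes did not use. INPUT came from the same lysates as IP and holds astrocyte RNA too, so its values are not independent of that choice. Arl4d was the only one of the 6 whose INPUT groups did not overlap, where 2.87% of 13577 genes showed this in either direction. Its mean went from 12.0 ± 2.52 CPM in naïve mice to 19.3 ± 2.48 CPM in stressed mice (SD, n = 4 each), a log2 difference of 0.70 (SE 0.15, 95% interval 0.38 to 1.02). The exact permutation p was 0.0286, the smallest possible, and all 4 stress values were above all naïve values. It did not pass the threshold over all genes (unadjusted p = 0.00035, adjusted p = 0.17, limma), at which 6 genes or 0.0442% were called, although only 27 genes had a smaller p. Over the 19 alternatives its log2 difference stayed between 0.54 and 0.80 and its adjusted p between 0.073 and 1.00.

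The other 5 genes had small differences in INPUT, with 95% intervals that bound the change. The log2 difference was −0.04 for Arl4c (interval −0.17 to 0.09) and 0.02 for Rnd3 (−0.18 to 0.22), the genes picked for their lower level in stress IP. It was −0.05 for Arl4a (−0.27 to 0.17), −0.01 for Rnd1 (−0.17 to 0.15) and −0.06 for Rnd2 (−0.22 to 0.10). None of the 6 was called by limma or limma-voom, and 1 (Arl4d) had an unadjusted p under 0.05 in each. Some marker levels moved alongside in INPUT, with none called. The median log2 difference was −0.04 over 8 astrocyte, −0.02 over 7 neuron, −0.07 over 6 oligodendrocyte, −0.14 over 3 precursor, −0.17 over 6 microglia, −0.34 over 5 endothelial and −0.08 over 4 mural markers. Single markers with larger differences were the astrocyte gene Sox9 at −0.55 (16.1 to 22.3 CPM in naïve and 12.0 to 15.8 CPM in stress INPUT, with no overlap) and the endothelial gene Cldn5 at −0.68 (adjusted p = 0.19 and 0.60, limma). The summed endothelial level ranged from 50.6 to 81.1 CPM in naïve and from 42.3 to 62.9 CPM in stress INPUT. The part of these in the Arl4d difference was not tested.

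In IP, the comparison by which the genes were picked, the values are given as a description. The mean of Arl4d went from 3.71 ± 3.20 to 25.2 ± 6.14 CPM, a ratio of 6.79, or 11.9 without naïve replicate 11 (2.11 ± 0.20 CPM in the other 3). No gene of the 12501 had a larger log2 difference than its 2.99 (SE 0.39). Arl4c went from 17.6 ± 2.11 to 11.1 ± 1.42 CPM (log2 difference −0.67, SE 0.12) and Rnd3 from 25.2 ± 3.68 to 15.6 ± 2.23 CPM (−0.69, SE 0.13), and without replicate 11 these differences were −0.76 and −0.79. The 3 paralogs that did not enter the choice by direction had log2 differences of 0.03 (Arl4a, SE 0.13), −0.26 (Rnd1, SE 0.21) and −0.10 (Rnd2, SE 0.11). In the table as a whole 0.44% of genes were called in this comparison and 5.0% had groups that did not overlap, from which nothing is read for the 6 genes. The difference between the stress effects in IP and in INPUT was 2.29 on the log2 scale for Arl4d, −0.63 for Arl4c and −0.71 for Rnd3, and it contains the same comparison.

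Beside these IP values, the summed astrocyte markers ranged from 82984 to 87679 CPM in naïve IP and from 80158 to 91962 CPM in stress IP. The summed neuron markers ranged from 991 to 1131 CPM in naïve and from 920 to 1038 CPM in stress IP, against 10938 to 11419 CPM in naïve INPUT. Of the 7 neuron markers 6 had a log2 difference below 0 in IP (median −0.25, none called), the direction of Arl4c and Rnd3. The summed endothelial markers ranged from 9.50 to 13.3 CPM in naïve IP and from 7.35 to 9.37 CPM in stress IP, with no overlap. The median log2 difference in IP was −0.43 over the 2 endothelial markers tested, −0.25 over 3 precursor and 3 mural markers each, −0.20 over 4 microglia markers and −0.08 over 6 oligodendrocyte markers, with none called. Over the 8 astrocyte markers the median was 0.05, with 5 above 0 and 3 below. Of these 8 only the transcription factor Sox9 was called in IP, with a log2 difference of −0.65 (SE 0.08, adjusted p = 0.0062, limma). The part of other cell types in the IP values was not tested.

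The genes that these GTPases work with were followed in 4 lists. Of the 14 Arl4 partners in naïve mice, 4 were higher in IP, 8 lower and 2 not called (median log2 ratio −0.85, against −0.64 over all genes). Over all genes 23.7% were higher and 64.0% lower, and the counts of this list and of the others below are read against these shares and set no list apart. The largest ratios were those of the Rac exchange factor Dock1 (3.40, SE 0.05, 513 CPM in IP and 48.8 CPM in INPUT), of Elmo1 (−3.45, SE 0.10) and of the kinase Pak1 (−3.22, SE 0.06). All 4 cytohesins were lower, from −1.23 for Cyth2 and Cyth3 to −1.86 for Cyth4, and filamin A (Flna, 1.57) and Elmo2 (1.19) were higher. Of the 13 Rnd partners tested, 5 were higher and 8 lower (median −0.82). The semaphorin receptor Plxnb1 had the highest ratio (4.12, SE 0.08, 926 CPM against 52.8 CPM in INPUT), and the neuronal stathmin Stmn2 the lowest (−4.28, SE 0.06), with Plekhg5 (−2.48) and Plxnd1 (−2.34) next. The paired kinases parted, with Rock1 at 1.66 (SE 0.06) and Rock2 at −1.56 (SE 0.07). The genes named in these 2 lists passed the test in limma, with 4.2e-08 (Flna) as the largest adjusted p, and kept their direction under both rescalings.

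Of the 11 genes tested on the axis from RhoA to actin, 2 were higher (Rhoc, 1.57, and Rhoa, 0.93), 8 lower and 1 not called (median −0.51). Myl12b (−2.12), Limk1 (−1.90) and the phosphatase subunit Ppp1r12a (−1.20) were the lowest. Of the 20 other Arf family GTPases tested, 2 were higher, 15 lower and 3 not called (median −0.93), with Arf3 (−2.49), Arl15 (−2.16), Arl5b (−1.84) and Arf5 (−1.81) lowest. The genes named here kept their sign under both rescalings. With median-ratio scaling the lower counts were 4 of 11 and 13 of 20, and the signs that flipped were those of Cfl1, Myl12a, Myl9, Ppp1cb, Rhob, Arl2, Arl3 and Sar1a.

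**Figure D4:**
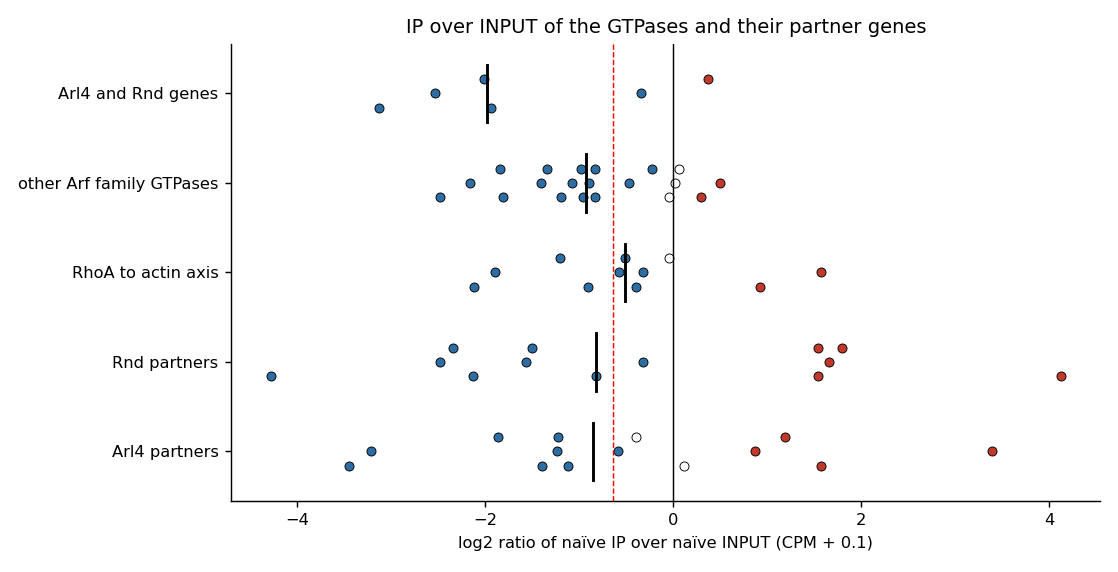
Log2 ratio of naïve IP over naïve INPUT for each tested gene, with red points called higher, blue points called lower and white points not called, the median of each row as a black bar and that of all genes dashed (−0.64). Dock1 (3.40) and Plxnb1 (4.12) lay far to the right of the other partners.

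After stress, 1 of the 58 list genes tested in IP was called, Rhob, a fast-turnover relative of RhoA, and 4 had an unadjusted p under 0.05 (limma), against 55 of 12501 called over all genes. Rhob had 119, 134, 203 and 142 CPM in naïve IP (replicates 2, 8, 11 and 13) and 305, 287, 298 and 212 CPM in stress IP (replicates 4, 5, 6 and 15). The groups did not overlap, with naïve replicate 11 and stress replicate 15 nearest to each other. The log2 difference was 0.90 (SE 0.15, adjusted p = 0.032, limma), and over 19 alternatives the adjusted p ran from 0.00087 to 0.43, with the call lost in 9 of them, among these the omission of naïve replicate 2, 8 or 13 or of stress replicate 4, 5 or 6 (adjusted p 0.12 to 0.14).

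Rhou, an atypical small GTPase outside these lists, had 38.2, 41.7, 82.7 and 44.4 CPM in naïve IP and 103, 92.5, 85.1 and 81.6 CPM in stress IP. Again replicate 11 stood with the stress libraries and apart from the other naïve ones. The log2 difference was 0.87 (SE 0.20, adjusted p = 0.11, limma), and Rhou was not called in 16 of 19 alternatives. Without replicate 11, picked here for its value, the difference was 1.12 (adjusted p = 0.0001, limma), and without any of the other 7 libraries the adjusted p was 0.068 to 0.39. In the other 3 lists no gene was called in IP, and the genes of smallest p were Robo1 (−0.26), Arhgap5 (0.16) and Arl8a (−0.22).

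In INPUT none of the 59 list genes tested was called by limma or limma-voom after stress, with 5 and 4 genes at an unadjusted p under 0.05. Rhou had 37.4, 38.7, 50.3 and 42.7 CPM in naïve INPUT and 52.9, 55.1, 59.0 and 55.6 CPM in stress INPUT (log2 difference 0.40, SE 0.09, adjusted p = 0.17, limma). Rhob had 192, 194, 262 and 194 CPM in naïve and 260, 246, 270 and 250 CPM in stress INPUT (0.30, SE 0.09, adjusted p = 0.55, limma). In both genes naïve INPUT replicate 14 was the highest naïve library. Without it, a library picked here for its value, the log2 difference was 0.49 for Rhou (adjusted p = 0.012, limma) and 0.41 for Rhob (adjusted p = 0.0042, limma). With any of the other 7 libraries left out, neither was called (adjusted p 0.13 to 0.64 for Rhou and 0.41 to 1.00 for Rhob), and over all 19 alternatives Rhou was called in 2 and Rhob in 1. The difference between the stress effects in IP and INPUT was called for none of 58 list genes by limma or limma-voom (4 and 5 with an unadjusted p under 0.05), where 0.0225% of 13341 genes were called.

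**Figure D5:**
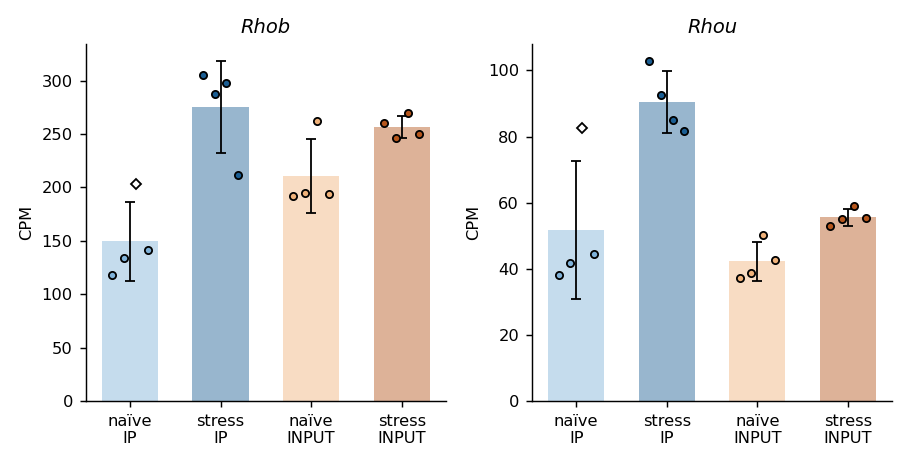
CPM of Rhob and Rhou in each library, with bars for the group mean, lines for the SD (n = 4) and points for single libraries (white diamond, naïve IP replicate 11). In IP the mean went from 150 to 275 CPM for Rhob and from 51.7 to 90.5 CPM for Rhou.

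For each of the 6 genes the most similar profiles over all 16 libraries were ranked by Pearson r of log2(CPM + 0.1) among 13340 other genes. The points share 4 groups, and large differences between IP and INPUT raise r. The 16 libraries also include the IP libraries by whose stress difference Arl4d, Arl4c and Rnd3 were picked. A shared stress change is thus partly built into r for these genes, and their neighbours are given only as a description. Arl4d was closest to Irs2 (r = 0.962), an adaptor of insulin signalling, to Rhob (0.946) and to Mthfd2 (0.929), an enzyme of mitochondrial folate metabolism. Rnd1 was closest to Frs3, Fam189a1 and Sytl2 (0.998 to 0.997), Arl4a to Gnb4, Glce and Fundc2 (0.996 to 0.995) and Arl4c to Lrfn4, Siah2 and AI846148 (0.994 to 0.993). Rnd2 (Hyou1, Fam186b and l7Rn6, 0.928 to 0.922) and Rnd3 (Gab2, Axin2 and Sox11, 0.852 to 0.821) had less similar neighbours.

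Over the 8 IP libraries alone, r is given only as a description, since Arl4d, Arl4c and Rnd3 were picked by their difference over these same libraries and a shared change is built in. Arl4c had r = 0.980 with Rnd3, 0.972 with Mex3a and 0.970 with Foxn2, Rnd3 had 0.974 with Tle4 and 0.972 with Gtpbp1, and Arl4d had 0.989 with Mthfd2, 0.988 with Arrdc2 and 0.986 with Slc19a2.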

How the data were processed

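Per the methods, the authors used STAR for alignment (mm10) and HTSeq to count uniquely mapped fragments on RefSeq genes (edgeR and limma are also named in the submitters' processing notes, all with no version), and deposited for each of 16 libraries the log2 CPM of 24060 genes, scaled to the library's own total with no gene length. The floor of −6.40 is shared, and 100% of values under 1000 reads came out as whole reads (within 0.1). No pair of libraries was identical.

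The 6 genes and the 4 lists, with 7 marker lists, were chosen with earlier results of these data known. Groups of 4 libraries were compared on log2(CPM + 0.1) with limma 3.58.1 in R 4.3.3 (lmFit, eBayes with a variance trend), each comparison on its own 8 libraries (the difference of stress effects on all 16), over genes with a mean above 1 CPM, calling adjusted p under 0.05 (Benjamini-Hochberg). Single genes had a two-sided exact permutation test. The foreseen units differed from the log2 CPM found, and the test for normalized values was used. Fold changes on this scale understate those of genes near 1 CPM. Per the methods, the tissue of each animal was processed on its own, so the libraries of a group are separate mice. IP and INPUT came from the same lysates, but with the pairing not given they were treated as independent. Reads after PCR are not independent molecules, so the level of 3 reads given above covers counting error only. It was not used as a filter.

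Named genes were the 6 members, and per list the 4 largest called IP over INPUT ratios and each gene called after stress or, with none, that of smallest p. The 3 most similar genes and Rpl22 were named too. Cyth2, Cyth3, Flna, Elmo2, Rock1, Rock2, Rhoa, Sox9, Cldn5, Pdgfrb, Rhob in INPUT and the genes whose sign flipped were added after their values were seen. Diaph1 and Diaph2 had no row and are not analysed here. Another planned list is not reported here, apart from Rhou, its gene of smallest p after stress. Exon lengths and coordinates came from GENCODE M21 on GRCm38, and promoters from RefSeq. Alternatives were pseudocounts of 1 and 0.01, no filter, a mean above 5 CPM, median-ratio scaling, quantile normalization, limma-voom on recovered reads, no variance trend, array weights, all 16 libraries in one model, sex from Xist as a covariate, the longest transcript as length and each library left out. The fit was tested on simulated reads with 200 changed genes (log2 change 1): for stress in INPUT 199 of 199 were recovered among 13606 genes with 7 false calls, and for stress in IP 197 of 198 among 12513 with 9. Every simulated gene had the same dispersion, 0.0044 for stress in INPUT and 0.0058 for stress in IP. Such recovery is not shown for genes that vary more, such as Arl4d (SD 86.4% of the mean in naïve IP). Tables were made in Python 3.11.15 (pandas 2.3.3, NumPy 2.4.6), and matplotlib 3.10.9 drew the plots.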

Additional observations from a re-analysis of the deposited data

Results flagged for a closer look

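In 32 groups of 4 values (the 6 genes, Rhob and Rhou in each group), 4 held a library whose gap to the others exceeded Dixon's critical value, where chance gives about 1.6. Naïve IP replicate 11 had 8.50 CPM of Arl4d (others 1.94 to 2.33 CPM) and 82.7 CPM of Rhou (others 38.2 to 44.4 CPM). Naïve IP replicate 2 had 27.3 CPM of Rnd2 (others 20.2 to 21.0 CPM). Naïve INPUT replicate 14 had 262 CPM of Rhob (others 192 to 194 CPM).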

How the results depend on the processing

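No paired analysis was possible because the replicate numbers are library numbers that no pair of groups shares, and the mouse behind each library is not given. The number of the 6 genes called was between 5 and 6 for IP over INPUT in both conditions and 0 for stress in INPUT under every alternative run. In the main fit 87.7% of all genes in naïve and 86.1% in stressed mice were called for IP over INPUT. The counts of the 6 genes are near those shares and do not set them apart. The call of Rnd3 in naïve mice was lost with no filter (0.37). The IP over INPUT ratio changed sign for Rnd2 with median-ratio scaling (0.30 naïve, 0.25 stressed) and quantile normalization (0.26 and 0.24), and for Rnd3 in stressed mice (0.29 with either). That of Arl4d in stressed mice was called with median-ratio scaling (0.98), quantile normalization (0.96), array weights (0.38), without stress IP replicate 15 (0.55) and without stress INPUT replicate 12 (0.43). Near 0, the stress difference in INPUT changed sign for Rnd1 with array weights (0.017), without naïve INPUT replicate 7 (0.015) and without stress INPUT replicate 9 (0.050), for Arl4a without naïve INPUT replicate 14 (0.025), and for Rnd3 without naïve INPUT replicate 3 (−0.012) or 14 (−0.039) or stress INPUT replicate 12 (−0.017). With 1 library left out it ranged from −0.16 to 0.02 for Arl4a, from −0.052 to 0.050 for Rnd1 and from −0.039 to 0.080 for Rnd3. The count of genes called for stress in INPUT, 6, was 1 with no filter, 0 with no variance trend, 50 with array weights, 2 with all 16 libraries in one model and between 1 and 32 with 1 library left out (32 without naïve INPUT replicate 14, 18 without stress INPUT replicate 9). With the trend that count was 6, while 683 of 13577 genes had an unadjusted p under 0.05 (limma), near the share chance gives. For stress in IP, 55, it was 2 with no filter, 19 with no variance trend, 143 with array weights, 124 with all 16 libraries and between 17 and 122 with 1 left out (17 without naïve IP replicate 13, 122 without naïve IP replicate 11, 101 without stress IP replicate 15). For the difference of stress effects, 3, it was 19 with array weights and up to 28 with 1 left out (28 without naïve IP replicate 11). The cause of these moves was not tested. With the longest transcript as length, the rank of the level per kb became 5 for Arl4a and 6 for Rnd1 in naïve IP, 4 for Arl4a, 1 for Arl4c, 5 for Arl4d and 2 for Rnd2 in naïve INPUT, and 1 for Arl4c, 4 for Arl4d and 3 for Rnd1 in stress INPUT. These are ranks of means, and each of these genes overlapped a neighbour in the order. At 42 to 52 reads of Arl4d in 3 naïve IP libraries, counting error is larger than for the other values.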
